A study of Mus musculus with 48 samples.

Results

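Newly made RNA of 10 imprinted genes was followed in mouse embryonic stem cells (mESCs): Peg10, Sgce, Peg3, Mest, H19, Igf2, Meg3, Rian, Grb10 and Impact. The 10 genes were chosen by symbol, through their Ensembl gene IDs, among the 54752 genes counted, and all 10 were found in each of the 3 count tables. The rule names the genes and uses no measured value, but they were picked with earlier results of these data known, so counts of members are descriptions. Of these, 9 had counts and passed the low-count filter of every comparison. Igf2 is listed at 0 in all 48 libraries and was not tested.

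The RNA was labelled with 4-thiouridine (4SU), a uridine analogue built into transcripts as they are made, for 30 min in cycling cells and 15 min in synchronized cells, so the counts follow current transcription more closely than the standing RNA pool. The 48 libraries form 24 groups of 2, all grown in L2i medium. Cycling FOXD3-iKO cells, in which FOXD3 is depleted by tamoxifen (4HT), received 4HT or the solvent ethanol for 8, 14, 24 or 32 h (16 libraries). Cycling OCT4-tetOff cells, in which OCT4 is depleted by doxycycline, received doxycycline or water for 16 or 24 h (8 libraries). FOXD3-iKO cells held by a double thymidine block were released 24 h after 4HT or ethanol and collected 0, 1, 2, 3, 4 or 5 h later (24 libraries). The ethanol and water cells carry the same engineered alleles as the treated cells of their line, so no unmodified line is in the comparisons. The labels name neither the construct that drives each depletion nor whether a line is 1 clone. The series asks what loss of FOXD3, a forkhead factor of pluripotent cells, does to transcription, beside loss of OCT4 (Pou5f1), the POU factor on which pluripotency depends.

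Imprinted genes are transcribed mainly from 1 parental copy, the choice being set by DNA methylation laid down in egg or sperm. They lie in clusters that share a control region. Peg10, Sgce, Peg3, Mest, Igf2 and Impact are expressed from the paternal copy, and H19, Meg3 and Rian, which make no protein, from the maternal one. Grb10 is maternal in most tissues. Cultured mESCs are known to gain or lose imprints, the cluster that holds Meg3 and Rian among them. The counts do not tell the parental copies apart, so a level here is the sum of both.

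Positions are given on mm10. Peg10, a gene derived from a retrotransposon and needed for the placenta, lies at chr6:4747306-4760517 on the plus strand. Sgce, which encodes the membrane protein epsilon-sarcoglycan, lies at chr6:4674350-4747207 on the minus strand, and the 2 start 99 bases apart and point away from each other. Peg3, a zinc finger gene, lies at chr7:6703892-6730431 on the minus strand, and Usp29 starts 147 bases from it on the plus strand. Meg3 (chr12:109541001-109571726) and Rian (chr12:109603940-109661716) follow each other on the plus strand. Mest, an enzyme of the alpha/beta hydrolase fold, spans chr6:30723547-30748465. Grb10, an adaptor that dampens insulin and IGF signalling, spans chr11:11930508-12038683 on the minus strand. H19 (chr7:142575529-142578143) and Igf2 (chr7:142650766-142666816), which encodes the growth factor IGF2, both lie on the minus strand. Impact, a regulator of translation, lies apart from the others.

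Promoter windows of the RefSeq table (build GRCm38.p6, 300 bases around a start) were matched for Peg3, Mest, Igf2, Meg3, Rian and Grb10. The windows below are shown because Meg3 and Rian moved together between the lines, Peg3 shares its start region with Usp29, and Mest rose with loss of OCT4 and fell with 4HT in synchronized cells. Capitals mark TGCCGC on either strand, the methylated hexamer bound by ZFP57, the zinc finger protein that keeps imprints. That hexamer was found in 11.6% of all 32851 promoter windows of this length. The Meg3 window is chr12:109540746-109541045 (plus), the Rian window chr12:109603695-109603994 (plus), the Peg3 window chr7:6730370-6730669 (minus) and the Mest window chr6:30737800-30738099 (plus).
Meg3: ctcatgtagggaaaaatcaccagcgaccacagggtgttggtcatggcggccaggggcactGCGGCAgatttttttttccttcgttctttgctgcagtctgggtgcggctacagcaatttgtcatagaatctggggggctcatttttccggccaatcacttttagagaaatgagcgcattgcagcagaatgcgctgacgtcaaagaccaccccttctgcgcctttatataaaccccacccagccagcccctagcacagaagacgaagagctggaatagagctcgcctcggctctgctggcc
Rian: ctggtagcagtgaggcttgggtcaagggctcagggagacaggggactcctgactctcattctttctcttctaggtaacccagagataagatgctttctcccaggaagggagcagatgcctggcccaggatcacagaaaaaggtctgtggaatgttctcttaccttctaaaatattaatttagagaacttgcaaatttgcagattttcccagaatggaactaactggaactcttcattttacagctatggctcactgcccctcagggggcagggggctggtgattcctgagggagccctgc
Peg3: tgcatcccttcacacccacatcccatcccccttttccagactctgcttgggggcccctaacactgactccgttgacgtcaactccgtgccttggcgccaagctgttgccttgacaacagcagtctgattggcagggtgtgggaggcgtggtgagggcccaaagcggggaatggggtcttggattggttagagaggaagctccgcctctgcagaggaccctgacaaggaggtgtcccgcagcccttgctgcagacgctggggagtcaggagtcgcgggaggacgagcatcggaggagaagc
Mest: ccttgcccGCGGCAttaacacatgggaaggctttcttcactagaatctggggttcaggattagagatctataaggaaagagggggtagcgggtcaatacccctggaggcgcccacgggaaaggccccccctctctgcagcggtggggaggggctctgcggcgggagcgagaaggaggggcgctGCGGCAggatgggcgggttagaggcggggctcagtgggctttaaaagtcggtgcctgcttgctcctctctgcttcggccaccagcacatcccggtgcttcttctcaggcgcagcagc
The Meg3 window holds 1 match and 13 CpG, the Mest window 2 matches and 17 CpG, and the Peg3 window no match and 13 CpG. An upstream Mest window that is not shown (chr6:30733256-30733555) holds no match and 8 CpG, and a downstream Meg3 window no match and 1 CpG. The Rian window holds no CpG and no match, and all windows have a median of 7 CpG. The Grb10 window at chr11:12037371-12037670 holds 45 CpG, more than 98.1% of windows, and 1 match. The forkhead core TGTTTA, on either strand, was found once in the downstream Meg3 window (chr12:109545148-109545447) and in none of the other windows of these genes, against 13.4% of all windows. The octamer ATGCAAAT, read by POU factors such as OCT4, was in none of them, against 1.7% of all windows. A match is only a run of letters, and its absence here says nothing of sites outside these windows.

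Some members are hosts of microRNAs, short RNAs that pair with messages through bases 2 to 8, the seed. RefSeq places mature products of 1 microRNA gene inside each of Mest, H19 and Igf2, of 2 inside Meg3 and of 3 inside Rian, on the host's strand. A mature product of each host with counts, and 2 for Rian, are shown with the seed in capitals, because the host's transcription was what these libraries followed.
mmu-miR-335-5p (Mest): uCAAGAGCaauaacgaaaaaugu
mmu-miR-675-5p (H19): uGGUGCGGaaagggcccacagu
mmu-miR-770-5p (Meg3): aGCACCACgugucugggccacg
mmu-miR-341-3p (Rian): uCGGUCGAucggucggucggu
mmu-miR-370-3p (Rian): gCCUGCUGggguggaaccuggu
No seed among these 5 is shared. The genes of these 5 microRNAs are listed at 0 in the tables. All 2473 genes of at least 1000 bases that lie wholly inside another gene on the same strand, and in none on the opposite strand, are listed at 0 in all 48 libraries, against 10.4% of the 3280 that lie only inside a gene on the opposite strand and 15.8% of the 18776 that overlap no gene. Reads shared by same-strand genes were thus not counted, while strands were kept apart. Igf2 lies over 16048 of its 16051 bases inside Gm49394 on its own strand, so its 0 is no measure of its transcription. Same-strand genes cover 5.7% of Rian, 3.2% of H19, 1.7% of Mest, 1.2% of Meg3 and 0.8% of Impact, and none of Peg10, Sgce, Peg3 or Grb10.

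The depletions could be seen in the targeted genes. Foxd3 was at 8.24 ± 1.66 CPM (TMM-scaled CPM, SD, n = 8) in cycling ethanol libraries and 3.01 ± 1.01 (n = 8) with 4HT, and at 5.67 ± 1.29 (n = 12) and 1.57 ± 0.343 (n = 12) in synchronized cells, with no overlap in either experiment. Pou5f1 was at 204.8 ± 23.0 CPM (n = 4) with water and 65.9 ± 16.2 (n = 4) with doxycycline. Foxd3 also differed in OCT4-tetOff cells, at 26.8 ± 7.61 CPM (n = 4) with water and 5.50 ± 3.71 (n = 4) with doxycycline. Of 10 stem cell markers only Sox2 is listed at 0, and it lies wholly inside Sox2ot on the same strand. Depth was 21827951 to 30406124 counts per library in cycling FOXD3-iKO cells, 21113158 to 26112435 in OCT4-tetOff cells and 7953841 to 17936504 in synchronized cells. Replicates of 3 groups stood further apart than the rest: ethanol at 32 h of the cycling cells, and ethanol at 3 h and 5 h of release.

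Per kilobase of gene, the order of the members differed between the lines. In cycling FOXD3-iKO cells with ethanol, Impact was highest at 3.15 CPM per kb (mean of 8 libraries, 2.73 to 4.24). Rian followed at 1.96 (1.69 to 2.58), then Mest at 1.51, Meg3 at 1.16, Peg10 at 0.963 and Peg3 at 0.755. H19 at 0.370, Grb10 at 0.247 and Sgce at 0.144 closed the order of the genes with counts. From Rian down to Sgce, the ranges of each pair of neighbours in this order overlapped. In OCT4-tetOff cells with water, Peg10 at 4.96 CPM per kb (mean of 4 libraries, 4.33 to 5.48) and Impact at 4.40 (4.27 to 4.57) led with overlapping ranges. Peg3 came next at 0.703, Mest at 0.391, and H19 at 0.330 overlapped Sgce at 0.325. Rian at 0.103 and Meg3 at 0.0723, both among the first 4 in the other line, were the lowest of the 9. In synchronized FOXD3-iKO cells with ethanol, Impact at 4.72 and Peg10 at 2.26 led, and Sgce at 0.126 was lowest.

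With OCT4 loss most of the 9 tested members rose and Grb10 fell. Peg10 rose 6.36-fold at 16 h and 17.8-fold at 24 h, and its neighbour Sgce 2.53-fold and 3.38-fold. H19, Mest and Rian rose at both times, Peg3 and Meg3 at 24 h, and Grb10 fell at both. Impact did not pass the test at either time. At 16 h, 6 of the 9 tested members passed (5 higher, 1 lower), where 16.9% of all 17713 genes tested did (7.94% higher, 8.91% lower). Without the first water or the first doxycycline library of 16 h, 3 passed. At 24 h, 8 of 9 passed (7 higher, 1 lower), where 36.9% did (18.1% higher, 18.7% lower). Of 23 other imprinted genes tested, 4 passed at 16 h (4 higher) and 9 at 24 h (8 higher, 1 lower). These shares are near those of all genes. The members' median log2 fold change was 0.75 at 16 h and 0.76 at 24 h, beside -0.002 and -0.007 over all genes.

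Markers of other cell types moved with these changes. The summed CPM of 10 stem cell markers was 3127 to 3635 with water and 1222 to 1823 with doxycycline, and at 24 h all 9 tested ones fell. The sum of 10 primitive endoderm markers was 187 to 235 and 203 to 263 (6 of 8 tested rose and 1 fell at 24 h), and that of 10 trophectoderm markers 151 to 164 and 173 to 196 (4 of 9 rose, 1 fell). The sum of 12 fibroblast markers, which feeder cells would carry, was 29.9 to 34.6 and 25.1 to 26.9, with Lum at 0 in all doxycycline libraries. Their part in the changes of the imprinted genes was not tested. In bulk RNA, fewer cells of a type and less RNA per cell cannot be told apart.

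Peg10 stood at 72.1 and 72.5 CPM in the 2 water libraries of 16 h and at 469 and 450 with doxycycline. At 24 h the water libraries were at 60.5 and 57.2 CPM and the doxycycline libraries at 1180 and 912. Every doxycycline library was thus several times above every water library, and the 24 h pair was above the 16 h pair. The log2 fold change was 2.67 ± 0.14 (SE) at 16 h (edgeR, adjusted p = 6.27e-06). At 24 h it was 4.15 ± 0.15 (adjusted p = 5.79e-07). Per kilobase, doxycycline brought Peg10 to a mean of 57.0 CPM per kb over the 4 libraries.

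Sgce was at 20.4 and 17.5 CPM with water and 45.8 and 50.3 with doxycycline at 16 h. At 24 h it was at 25.9 and 31.1 with water and 77.5 and 115 with doxycycline. The groups did not overlap at either time, and the 2 doxycycline libraries of 24 h differed from each other more than for any other pair of this gene in that line. The log2 fold changes were 1.34 ± 0.19 (adjusted p = 0.00108) and 1.76 ± 0.18 (adjusted p = 9.33e-05).

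H19 is a short gene with few counts here, though per kilobase it stood above Grb10, Rian and Meg3 with water. Its water libraries held 0.923 and 0.825 CPM at 16 h and 0.908 and 0.795 at 24 h, from 15 to 23 counts each, above the 3-count floor of 0.115 to 0.142 CPM. Doxycycline gave 1.74 and 1.52 CPM at 16 h and 4.25 and 3.69 at 24 h. All doxycycline libraries were above all water libraries. The log2 fold change was 0.89 ± 0.25 at 16 h (adjusted p = 0.0378), a call that was lost in DESeq2 (adjusted p = 0.118) and without any 1 of the 4 libraries of 16 h (adjusted p = 0.105 to 0.203), and 2.21 ± 0.21 at 24 h (adjusted p = 5.81e-05). Igf2os, the transcript antisense to its partner Igf2, rose by 2.12 ± 0.39 on the log2 scale at 24 h (adjusted p = 0.00272).

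Peg3 was at 17.6 and 17.0 CPM with water and 17.6 and 20.7 with doxycycline at 16 h, where the groups touched. At 24 h it was at 19.95 and 20.15 with water and 33.2 and 32.7 with doxycycline, and it rose by 0.72 ± 0.10 on the log2 scale (adjusted p = 0.000672). Usp29, a deubiquitinase gene transcribed away from Peg3 from the same start region, was already far higher at 16 h. Its water libraries were at 6.27 and 6.38 CPM and its doxycycline libraries at 27.4 and 33.6, a log2 fold change of 2.27 ± 0.14 (adjusted p = 1.38e-05), against 0.15 ± 0.11 for Peg3 (adjusted p = 0.413). At 24 h Usp29 rose by 1.95 ± 0.14 (adjusted p = 9.57e-06). The difference between the 2 genes was not tested.

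Meg3 and Rian, the noncoding RNAs of the chromosome 12 cluster, rose from very low levels. Meg3 was at 2.41 and 2.67 CPM with water and 4.39 and 4.21 with doxycycline at 24 h, a log2 fold change of 0.76 ± 0.19 (adjusted p = 0.0128). Without the first of these water libraries it was 0.69 and did not pass (adjusted p = 0.0822). At 16 h its value was 0.52 ± 0.22 (adjusted p = 0.15). Rian was at 6.32 and 4.51 CPM with water and 9.31 and 9.09 with doxycycline at 16 h, and at 6.36 and 6.55 against 10.97 and 11.88 at 24 h. Neither time showed an overlap for Rian, with log2 fold changes of 0.76 ± 0.16 (adjusted p = 0.0114) and 0.82 ± 0.15 (adjusted p = 0.00287). Its 16 h call was lost in 3 of the 8 fits without 1 library: without the second water library (0.54, adjusted p = 0.101) and without either doxycycline library of that time (adjusted p = 0.0718 and 0.0637). Mirg, which continues this transcribed stretch, rose by 0.62 ± 0.16 and 0.61 ± 0.16 (adjusted p = 0.0287 and 0.0163). Dio3, a deiodinase gene at the far end of the cluster, fell by 2.81 ± 0.43 on the log2 scale at 16 h (adjusted p = 0.00189), from 1.26 and 1.59 CPM to 0.162 and 0.234. At 24 h it also fell (adjusted p = 0.000399), from 1.22 and 1.45 CPM to 0.0369 and 0.172, around the 3-count floor of 0.115 to 0.142 CPM, so no fold is given.

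Mest was at 8.84 and 9.73 CPM with water and 16.0 and 15.3 with doxycycline at 16 h, and at 11.3 and 9.16 against 17.5 and 15.6 at 24 h. The log2 fold changes, 0.75 ± 0.14 (adjusted p = 0.00473) and 0.69 ± 0.13 (adjusted p = 0.00321), lay within each other's error. Without the first water library of 16 h the call of that time was lost (adjusted p = 0.0605). Copg2, whose end overlaps Mest on the opposite strand over 912 bases, did not pass at either time. Grb10 went the other way. Grb10 was at 18.8 and 16.1 CPM with water and 10.5 and 12.6 with doxycycline at 16 h, and at 19.6 and 21.9 against 5.38 and 6.49 at 24 h, so that all 4 doxycycline libraries were below all 4 water libraries. It fell by 0.60 ± 0.14 on the log2 scale at 16 h (adjusted p = 0.0205). At 24 h it fell by 1.81 ± 0.15 (adjusted p = 2.55e-05). Scaled by total counts, the 16 h call was lost (adjusted p = 0.0836), as it was without the first water or the first doxycycline library of 16 h (adjusted p = 0.171 and 0.166). Its neighbours Cobl and Ddc also fell at 24 h, by 1.96 ± 0.22 and 0.70 ± 0.08 (adjusted p = 0.000166 and 0.000182). Impact was between 158 and 169 CPM in the water libraries and between 150 and 158 with doxycycline (log2 fold change -0.12 ± 0.10 at 24 h, adjusted p = 0.356).

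The change of the response from 16 h to 24 h was tested directly. It was 1.48 ± 0.19 for Peg10 (adjusted p = 0.106) and -1.21 ± 0.21 for Grb10 (adjusted p = 0.131), and none of the 9 members passed. No gene of 17713 passed in this edgeR fit (0% called), while 1952 genes and 4 members had an unadjusted p under 0.05. DESeq2 called 90 genes, among them Peg10 (log2 difference 1.49, adjusted p = 1.58e-09) and Grb10 (-1.20, adjusted p = 0.00588).

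**Figure D1:**
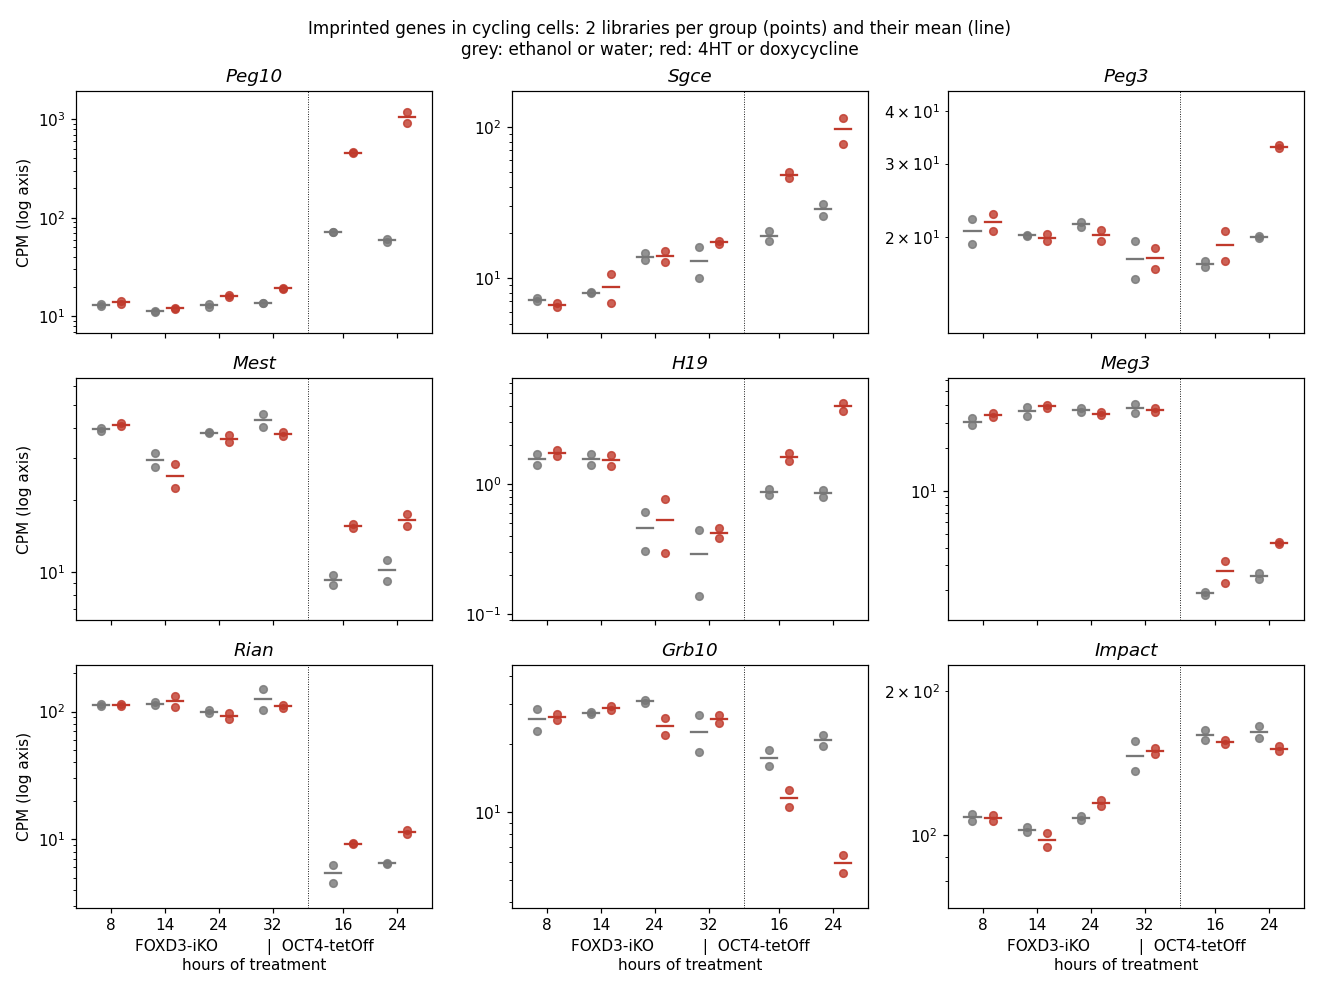
CPM (log axis) of the 9 imprinted genes with counts in each library of the cycling cells, by hours of treatment; points are the 2 libraries of a group, lines their mean, grey ethanol or water, red 4HT or doxycycline. Peg10 climbs to 1180 and 912 CPM after 24 h of doxycycline, Grb10 drops to 5.38 and 6.49, and Meg3 and Rian are far lower in OCT4-tetOff than in FOXD3-iKO cells in every library.

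With FOXD3 loss in cycling cells Peg10 alone of the 9 members passed, at 32 h, rising 1.40-fold, and none passed at 8, 14 or 24 h. At 8 h, no member and 0.0107% of the 18707 genes tested were called (0.00535% higher, 0.00535% lower). At 14 h, no member and 0.016% of genes were called (0.0107% higher, 0.00535% lower). In these edgeR fits 528 and 750 genes had an unadjusted p under 0.05, no member among them, and DESeq2 called 3 and 7 genes and no member. At 24 h, 0.481% of all genes were called (0.401% higher, 0.0802% lower), no member was, and 2 members (Peg10 and Grb10) had an unadjusted p under 0.05. DESeq2 called 168 genes at 24 h and no member. At 32 h, 1 of 9 members was called, where 9.47% of all genes were (4.88% higher, 4.59% lower). At each of these times the share of members is near that of all genes.

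Peg10 was at 12.5 and 13.3 CPM with ethanol and 15.8 and 16.6 with 4HT at 24 h, and at 13.7 and 13.7 against 18.98 and 19.45 at 32 h. At both times the 4HT pair was above the ethanol pair. The log2 fold change was 0.34 ± 0.08 at 24 h (adjusted p = 0.131) and reached 0.49 ± 0.08 at 32 h (adjusted p = 0.00262). The difference between these times was 0.15 ± 0.12 (adjusted p = 0.813), and no gene passed that test (0% called; 1395 genes had an unadjusted p under 0.05, and DESeq2 called 15). At 8 h the libraries were at 12.7 and 13.5 CPM with ethanol and 13.4 and 14.3 with 4HT, and at 14 h at 11.03 and 11.4 against 11.96 and 12.03. Fitted on the 4 libraries of 32 h alone, the change of Peg10 was 0.56 and no longer passed (adjusted p = 0.132).

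Sgce had a log2 fold change of 0.41 ± 0.20 at 32 h (adjusted p = 0.213). Its ethanol libraries, at 15.9 and 9.95 CPM, stood apart from each other, and the 4HT libraries were at 17.6 and 16.9. The same ethanol libraries differ in the share of counts on Gm26917 and Gm42418, which hold ribosomal RNA sequence: 14.3% in the first and 28% in the second, beside 13.9% and 12.5% with 4HT. Without the first, Sgce (0.79, adjusted p = 0.00721) and Grb10 (0.48, adjusted p = 0.0205) passed beside Peg10, and without the second, Rian did (-0.44, adjusted p = 0.0307). The part of that share in these values was not tested. Grb10 was at 30.4 and 31.4 CPM with ethanol and 26.2 and 21.8 with 4HT at 24 h (-0.36 ± 0.15, adjusted p = 0.476), and its values overlapped at 32 h. Meg3, Peg3, Mest, Rian and Impact had log2 fold changes between -0.19 and 0.11 at 24 h and 32 h, with SEs of 0.09 to 0.15, and none passed. H19 had 0.32 ± 0.49 and 0.51 ± 0.59.

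Among the neighbours, Zim1, a zinc finger gene of the Peg3 cluster, rose at 32 h from 1.61 and 1.70 CPM to 3.53 and 3.80, a log2 fold change of 1.15 ± 0.17 (adjusted p = 0.00104). Peg3 itself gave 0.01 ± 0.11 (adjusted p = 0.973). Of the 23 neighbours tested 4 passed, 3 higher and 1 lower, and of 23 other imprinted genes none did in edgeR, beside the 9.47% of all genes. One of 15 imprint maintenance factors (Uhrf1, -0.43 ± 0.12, adjusted p = 0.0355) and 1 of 14 IGF pathway genes (Irs2, -0.36 ± 0.07, adjusted p = 0.00807) fell. Primitive endoderm markers moved at this time too: 5 of 8 tested rose, and their sum was 126 to 146 CPM with ethanol and 199 to 204 with 4HT. Of 9 trophectoderm markers Tfap2c and Krt7 rose at 32 h, while the median log2 fold change of the 9 was -0.35, beside -0.05 over all genes. The sum of the 10 trophectoderm markers was 156 to 164 CPM and 167 to 170. Of 9 stem cell markers Utf1 fell, and their sum was 2980 to 3270 CPM and 2810 to 2859, again without overlap. The part of these cell types in the rise of Peg10 was not tested.

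H19 differed between the earlier and the later time points of this experiment, whatever the treatment, and Sgce was mostly higher at the later ones. H19 was between 1.39 and 1.84 CPM in the 8 libraries of 8 h and 14 h and between 0.138 and 0.764 in the 8 of 24 h and 32 h. Sgce was between 6.48 and 10.6 CPM in the former and between 9.95 and 17.6 in the latter, so its ranges overlapped. The library names carry 1 run of numbers at 8 h and 14 h and a different run at the later times. Duration of treatment and library run therefore cannot be told apart, and no test was made.

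Set beside OCT4 loss, with the 8 cycling libraries of 24 h fitted jointly, FOXD3 loss gave a different response in 7 of 9 members (1 higher, 6 lower), where 16.5% of 18437 genes were called (9.08% higher, 7.4% lower). The FOXD3 response was lower for Peg10 by 3.81 ± 0.22 on the log2 scale (adjusted p = 9.35e-06). It was lower for Sgce by 1.74 ± 0.26, for Rian by 0.94 ± 0.15, for Meg3 by 0.84 ± 0.17, for Peg3 by 0.80 ± 0.13 and for Mest by 0.77 ± 0.17, with adjusted p between 0.00156 and 0.0123. The call of Mest was lost in 3 of the 8 fits without 1 library (without either ethanol library or the first 4HT library, adjusted p up to 0.0541) and with totals outside Gm26917 and Gm42418 (adjusted p = 0.0821), and that of Meg3 without the first water library (adjusted p = 0.0533). It was higher for Grb10 by 1.45 ± 0.19 (adjusted p = 0.000687). H19 (-1.89 ± 0.61, adjusted p = 0.0616) and Impact (0.23 ± 0.15, adjusted p = 0.323) did not pass. The 2 responses were measured in different lines, so depleted factor, line, drug, solvent and experiment cannot be told apart. In the fit of each line, 0.481% of genes were called at 24 h with 4HT and 36.9% with doxycycline.

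**Figure D2:**
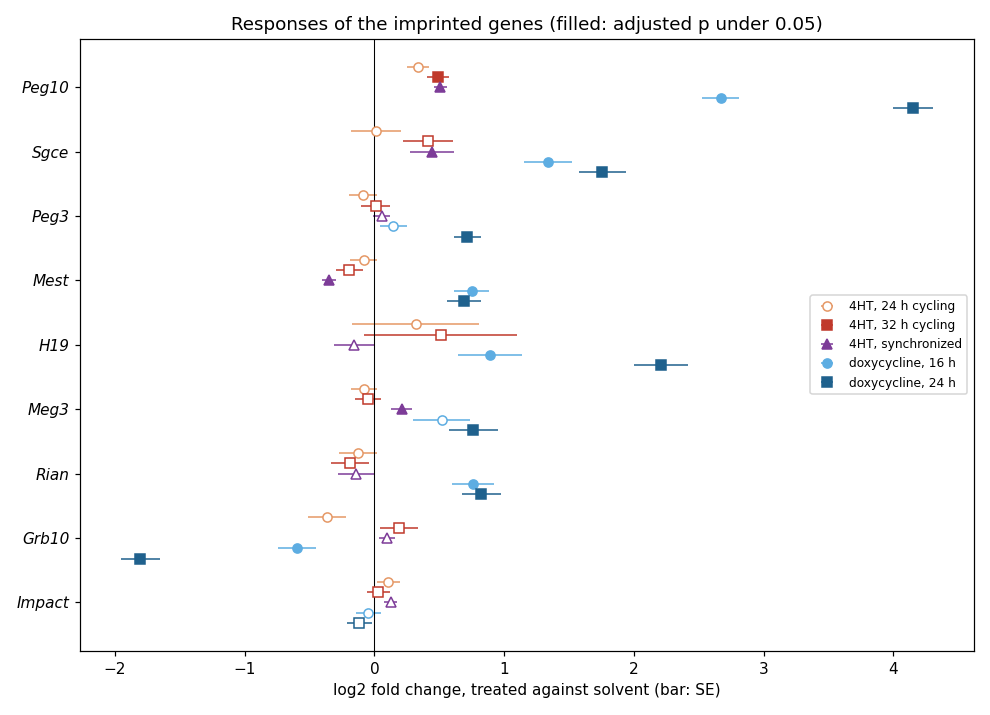
log2 fold change of each imprinted gene, treated against solvent, with SE bars, in 5 comparisons; filled symbols passed an adjusted p of 0.05. The doxycycline symbols of Peg10 lie at 2.67 and 4.15, those of Grb10 at -0.60 and -1.81, and the 4HT symbol of Peg10 lies at 0.49 at 32 h.

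The lines differed before any depletion, and among the members Rian and Meg3 differed most. With the 24 h libraries scaled together, Rian was at 100.5 ± 3.33 CPM (SD, n = 2) in FOXD3-iKO cells with ethanol and 6.59 ± 0.137 (n = 2) in OCT4-tetOff cells with water, 15.3-fold lower (log2 difference -3.93 ± 0.12 SE, adjusted p = 3.42e-08). Meg3 was at 37.1 ± 1.95 and 2.59 ± 0.185, 14.3-fold lower (-3.84 ± 0.13, adjusted p = 5.62e-08). In all, 7 of 9 members differed (3 higher and 4 lower in OCT4-tetOff), where 32.5% of all 18437 genes did (13.9% higher, 18.6% lower), and line, solvent and experiment cannot be told apart.

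Other transcripts along the plus strand of that cluster were low in OCT4-tetOff cells as well. Mirg, at 60.1 ± 0.594 CPM in FOXD3-iKO and 4.21 ± 0.0842 in OCT4-tetOff cells, differed by -3.83 ± 0.11 (adjusted p = 3.42e-08). Mir432, a microRNA gene between Meg3 and Rian, held 232 counts over the 16 cycling FOXD3-iKO libraries and 9 over the 8 OCT4-tetOff libraries. Mir434 beside it held 117 and 2. Dio3 was lower by 1.78 ± 0.23 (adjusted p = 0.000297), from 4.69 to 1.37 CPM. Dlk1, the paternal gene at the other end, was at 0.266 and 0.0679 CPM, near the 3-count floor, and too low to test. In OCT4-tetOff cells with doxycycline, Meg3 and Rian were at 4.41 and 11.7 CPM at 24 h in the same scaling.

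Mest was also lower in OCT4-tetOff cells, at 10.4 ± 1.51 against 38.5 ± 0.537 CPM (-1.88 ± 0.12, adjusted p = 4.7e-06), and Grb10 slightly so (-0.55 ± 0.13, adjusted p = 0.00772). The Grb10 call was lost without the second ethanol or the first water library (adjusted p = 0.0561 in both). Peg10 and Sgce went the other way together. Peg10 was at 60.1 ± 2.38 CPM against 12.95 ± 0.665 (2.22 ± 0.16, adjusted p = 6.55e-06), and Sgce at 29.1 ± 3.72 against 13.9 ± 0.926 (1.06 ± 0.19, adjusted p = 0.00186). Impact was higher by 0.62 ± 0.11 (adjusted p = 0.00153), while Peg3 differed by -0.08 ± 0.10 (adjusted p = 0.592) and H19 by 0.98 ± 0.46 (adjusted p = 0.134).

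Of 23 other imprinted genes, 12 differed between the lines, 3 higher and 9 lower in OCT4-tetOff cells, beside 32.5% of all genes. Plagl1, a zinc finger gene of its own imprinted locus, was among the lower, at 15.7 ± 0.976 against 154 ± 11.95 CPM (-3.30 ± 0.12, adjusted p = 1.48e-07), as was Sfmbt2 (-2.07 ± 0.13, adjusted p = 4.21e-06). Dnmt3l, the cofactor of the methyltransferases that set imprints, was lower by 2.13 ± 0.15 (adjusted p = 5.74e-06), 1 of the 5 among 15 imprint maintenance factors that differed (1 higher, 4 lower), a share near that of all genes. Zfp57 differed by 0.40 ± 0.15 (adjusted p = 0.0665). Of 25 neighbours 11 differed (7 higher, 4 lower), and of 14 IGF pathway genes 7, all lower.

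**Figure D3:**
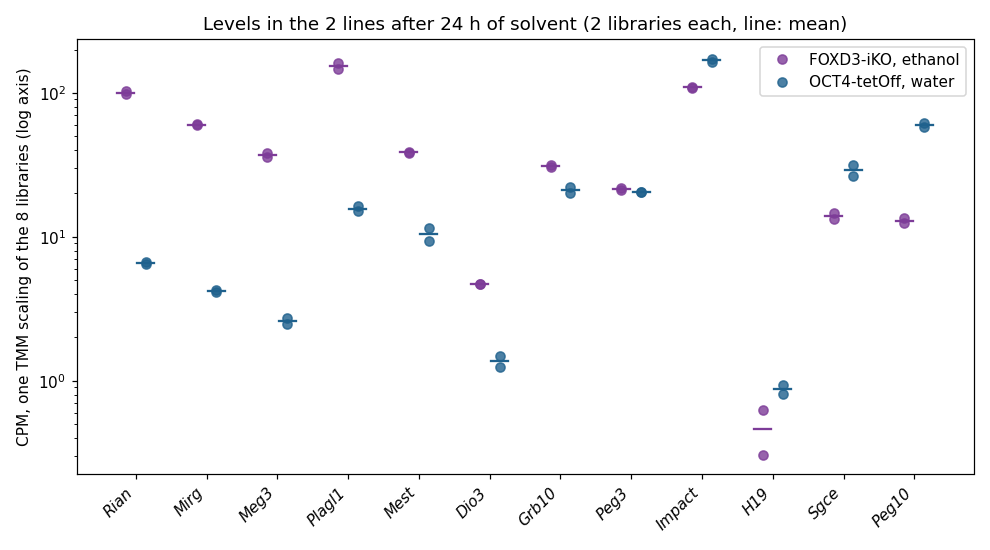
CPM (log axis, one TMM scaling) of members and of Mirg, Dio3 and Plagl1 in the 2 lines after 24 h of solvent; points are the 2 libraries, lines their mean. Rian, Mirg and Meg3 lie at 100.5, 60.1 and 37.1 CPM in FOXD3-iKO and at 6.59, 4.21 and 2.59 in OCT4-tetOff cells, while Peg10 and Sgce are higher in OCT4-tetOff cells and Peg3 lies at about the same level in both.

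In synchronized cells Peg10 was higher and Mest lower with 4HT at every release time. Over the 6 times, Peg10 rose 1.42-fold and Mest fell 1.27-fold. Sgce and Meg3 also passed, 1.36-fold and 1.16-fold higher. In all, 4 of 9 members were called (3 higher, 1 lower), where 37% of all 17739 genes were (18.6% higher, 18.4% lower). The share of members is near that of all genes. The members' median log2 fold change was 0.10 beside -0.006 over all genes. The summed CPM of primitive endoderm markers was 187 to 233 with ethanol and 264 to 365 with 4HT (4 of 7 tested rose, 1 fell). That of trophectoderm markers was 173 to 238 and 211 to 307 (3 of 8 rose, 1 fell). The stem cell sum was 3022 to 3656 and 3369 to 4123 (3 of 9 rose, 1 fell). The fibroblast sum was 55.5 to 74.0 and 61.05 to 85.2 (2 of 4 rose, 1 fell). The part of these cell types was not tested. All ethanol libraries of this experiment precede all 4HT libraries in the numbers of their names, so treatment and library run cannot be told apart.

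Peg10 ran from 22.1 to 37.6 CPM in the 12 ethanol libraries (median 29.7) and from 26.96 to 53.12 in the 12 4HT libraries (median 43.1). At each of the 6 times both 4HT libraries were above both ethanol libraries. The effect was 0.51 ± 0.05 (adjusted p = 1.58e-07), beside 0.49 ± 0.08 at 32 h in cycling cells. Sgce, its divergent neighbour, ran from 5.03 to 18.6 CPM (median 8.30) with ethanol and from 8.16 to 21.8 (median 10.9) with 4HT. Its 4HT libraries were below the ethanol libraries at 0 h, overlapped them at 1 h and were above them from 2 h to 5 h, and its effect was 0.45 ± 0.17 (adjusted p = 0.0415). That call was lost in 14 of the 24 fits that each left out 1 library.

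Mest ran from 27.3 to 46.5 CPM (median 37.0) with ethanol and from 24.7 to 32.6 (median 29.6) with 4HT, with no overlap within any of the 6 times, and fell by 0.35 ± 0.05 (adjusted p = 6.72e-05). Meg3 ran from 18.5 to 29.9 CPM (median 24.5) and from 22.4 to 34.6 (median 28), with an effect of 0.21 ± 0.08 (adjusted p = 0.0484). Its call was lost in 17 of the 24 fits without 1 library. Scaling by total counts moved the median of all genes from -0.01 to -0.21 and the split of calls from 3300 higher and 3265 lower to 796 and 7413. Under it Peg10 (0.30) and Mest (-0.56) still passed, Sgce (0.25, adjusted p = 0.21) and Meg3 (0.02, adjusted p = 0.874) did not, and Rian was called lower (-0.34, adjusted p = 0.0334). Peg3 (0.06 ± 0.07), H19 (-0.16 ± 0.16), Rian (-0.14 ± 0.14), Grb10 (0.10 ± 0.06) and Impact (0.13 ± 0.05, adjusted p = 0.0612) did not pass in the main scaling.

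Of 24 other imprinted genes tested in this comparison 11 passed, 9 higher and 2 lower, beside 37% of all genes. Among them were Sfmbt2 (0.58 ± 0.07, adjusted p = 1.55e-06) and Igf2r (0.28 ± 0.04, adjusted p = 2.63e-05), the receptor that clears IGF2. Of 21 neighbours 8 passed, 2 higher and 6 lower, a share near that of all genes. They included Ddc, next to Grb10, which fell by 0.39 ± 0.04 (adjusted p = 1.48e-07), and Mirg, which fell by 0.24 ± 0.07 (adjusted p = 0.00862).

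Release from the block changed 4 of the 9 members in ethanol cells (19.4% of all genes were called). Peg10 fell from 34.5 and 37.6 CPM at 0 h to 22.1 and 26.5 at 1 h (log2 difference -0.57, the largest of 5, adjusted p over all times 0.0146) and was at 29.7 and 31.3 at 5 h. Peg3 fell from 31.3 and 30.0 CPM at 0 h to 15.6 and 20.3 at 3 h (-0.77, adjusted p = 0.0191). Mest rose from 28.4 and 27.3 CPM to 44.5 and 38.7 at 2 h (0.58, adjusted p = 0.0255), and Impact fell from 221 and 226 CPM to 127 and 179 at 3 h (-0.55, adjusted p = 0.0405). Sgce had a larger difference, -1.19, with replicates far apart at 0 h (11.02 and 18.63 CPM), and did not pass (adjusted p = 0.0562). When only the ethanol libraries were fitted, none of the 9 passed. Without the first or the second 0 h ethanol library the count was 1 and 0, and without the first 1 h ethanol library it was 2.

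With 4HT the Peg10 libraries were also lower at 1 h than at 0 h, a change that was not tested on its own. Peg10 went from 53.1 and 52.6 CPM at 0 h to 31.01 and 26.96 at 1 h and 48.2 and 42.6 at 5 h with 4HT. No member, and no gene, passed the test of whether the 4HT effect differed over release (0% called; 882 genes and 1 member, Sgce, had an unadjusted p under 0.05). Sgce moved from 8.16 and 10.6 CPM at 0 h to 16.7 and 21.8 at 5 h with 4HT, and from 11.02 and 18.63 to 10.1 and 9.45 with ethanol (adjusted p = 0.764). DESeq2 called no member in that test.

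**Figure D4:**
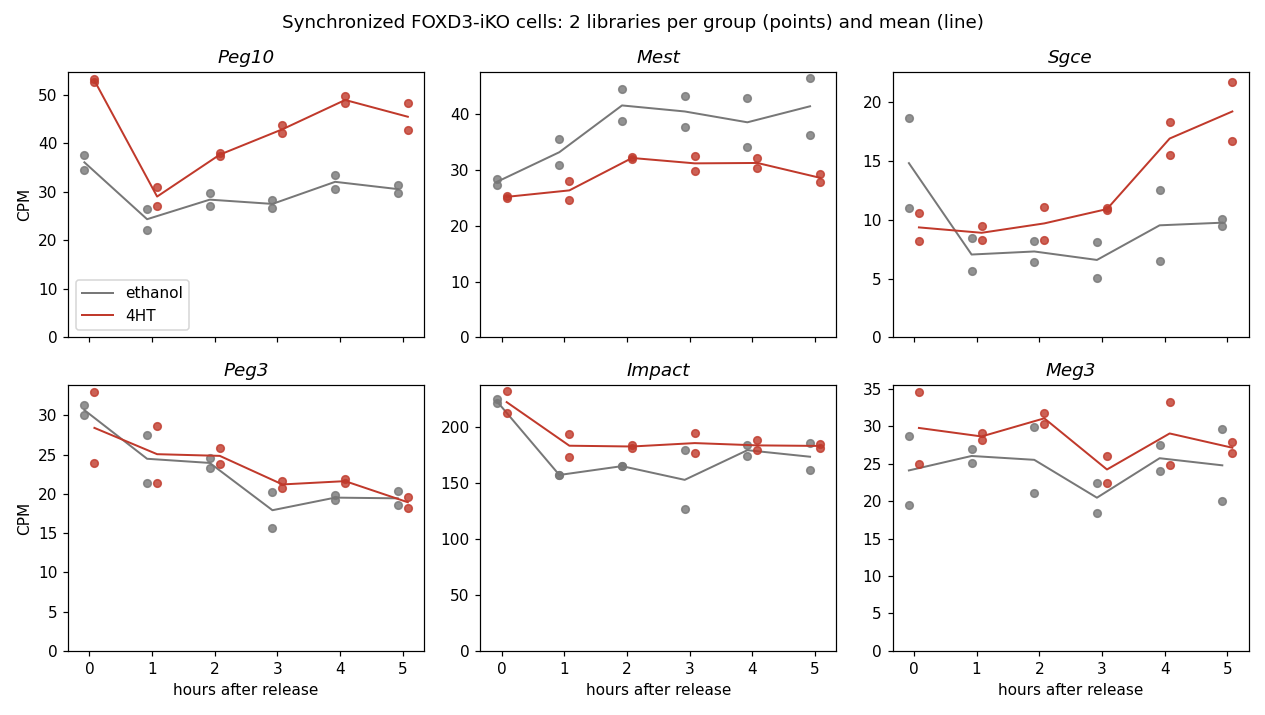
CPM of 6 imprinted genes by hours after release from the thymidine block, with ethanol (grey) and 4HT (red); points are the 2 libraries of a group and lines join their means. Peg10 is above and Mest below ethanol at each of the 6 times, and Peg10 falls to 22.1 and 26.5 CPM at 1 h with ethanol and to 31.01 and 26.96 with 4HT.

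Of 14 imprint maintenance factors tested, 9 passed after 24 h of doxycycline, 1 higher and 8 lower, and 5 did not pass, beside 36.9% of all genes called. Zfp57 fell from 317 and 373 CPM to 95.9 and 122 (-1.67 ± 0.14, adjusted p = 2.8e-05). Zfp42 fell by 1.79 ± 0.11, Tet2, which oxidises methylated cytosine, by 1.27 ± 0.12, and Uhrf1, which guides the maintenance methyltransferase, by 0.93 ± 0.11 (adjusted p between 3.67e-06 and 0.000164). Zfp42 is also among the stem cell markers that fell. At 16 h, 7 of 14 passed, 1 higher and 6 lower (16.9% of all genes). In synchronized cells with 4HT, 8 of 15 passed, 7 higher and 1 lower (37% of all genes), the lower one being Zfp57 (-0.21 ± 0.04, adjusted p = 0.000451). None of the libraries measures methylation.

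Igf2, Grb10 and the IGF2 receptor take part in IGF signalling. Of 13 genes of that pathway tested, 8 passed after 24 h of doxycycline, 6 higher and 2 lower, and 5 did not pass, beside 36.9% of all genes called. At 16 h 6 of 13 passed, 5 higher and 1 lower (16.9% of all genes). In synchronized cells with 4HT 8 of 13 passed, 7 higher and 1 lower (37% of all genes). After 24 h of doxycycline Igfbp2, a secreted IGF-binding protein, rose from 243 and 290 CPM to 587 and 673 (1.24 ± 0.13, adjusted p = 9.45e-05). The insulin receptor substrates Irs1 and Irs2 rose by 1.86 ± 0.20 and 0.86 ± 0.09 (adjusted p = 0.00013 and 0.00012). At the same time of doxycycline 16 of 24 neighbours passed, 11 higher and 5 lower, and 9 of 23 other imprinted genes, 8 higher and 1 lower, the latter a share near that of all genes. Airn, the noncoding RNA antisense to Igf2r, rose from 15.4 and 18.3 CPM to 62.3 and 79.2 (2.07 ± 0.14, adjusted p = 6.4e-06), while Igf2r differed by 0.11 ± 0.10 (adjusted p = 0.415). Next to Peg10 and Sgce, Casd1, Pon2 and Pon3 rose by 0.67, 0.63 and 0.68 on the log2 scale (adjusted p = 0.00212, 0.00466 and 0.000794), beside 4.15 for Peg10. Ppp1r9a (-0.02 ± 0.22) and Asb4 (0.31 ± 0.38, adjusted p = 0.548) did not pass.

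The genes with the pattern most like each member were taken from log2 CPM over the 24 group means, centred within each table, among 10907 genes (10906 for Mest). These correlations describe points that share controls, libraries and depth, and carry no test. They were ranked by Pearson's r, and Spearman's rho ranks some of them far lower, so which gene is most like depends on the measure. For Peg10 they were Tspan12 (Pearson r = 0.96, rho = 0.90), Nudt4 (0.95, rho = 0.87) and Gata6 (0.95, rho = 0.83), and for Sgce Frk, Pam and Setbp1 (each 0.95, rho = 0.97, 0.96 and 0.93). Gata6, a factor of primitive endoderm, was at 1.122 and 1.303 CPM with water and 20.7 and 21.1 with doxycycline at 24 h (4.10 ± 0.16, adjusted p = 6.01e-07), and it also rose in synchronized cells with 4HT (0.45 ± 0.06, adjusted p = 1.43e-05). By r, Peg3 was most like Exph5 (0.86, rho = 0.73), Mest like Axin2 (0.85, rho = 0.85), a WNT feedback gene, and Meg3 like Cyth1 (0.87, rho = 0.68, rank 93 by rho). Rian was most like Pex2 (0.90, rho = 0.82), Grb10 like Aoah (0.85, rho = 0.61, rank 111 by rho) and Impact like Paip2b (0.88, rho = 0.83). Between members, Peg10 and Sgce had the highest r (0.75 over 24 groups, 0.69 over the 20 FOXD3-iKO groups). Pairs on different chromosomes came close in 1 of these sets. Peg10 and Meg3 had r = 0.70 and 0.35, and Peg10 and Impact 0.14 and 0.67. Meg3 and Rian had r = 0.50 and 0.09.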

How the data were processed

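Nascent 4SU-labelled RNA was sequenced from 48 libraries of mouse embryonic stem cells, 2 in each of 24 groups. The submitters' processing notes name STAR, featureCounts and mm10. Their versions and the strand and overlap settings were not given in the sources used here. The 3 deposited tables hold unnormalized counts, summed over each full gene interval with its introns. Groups follow the sample titles, which do not say that replicates are separate cultures, so p-values measure the spread between libraries, which may be technical. Each table was scaled by TMM and fitted over all its groups with edgeR 4.0.16 (R 4.3.3; filterByExpr, minimum count 10; quasi-likelihood test; Benjamini-Hochberg adjusted p under 0.05 over all genes). The 8 cycling libraries of 24 h were scaled and fitted together to compare the lines. CPM use the TMM-scaled library size, and CPM per kb divide by gene length. The 3-count floor was 0.0987 to 0.137, 0.115 to 0.142 and 0.167 to 0.377 CPM in the 3 experiments, and floors cover counting error only. The fit was run on simulated counts with the same spread set for every gene. That run did not cover replicates as uneven as those here, nor changes as small as many given here. Alternatives were DESeq2 1.42.0, other scalings, no low-count filter, removal of a length trend, a replicate block, only the groups compared, and leaving out each library. Members, and the lists of cluster neighbours, other imprinted genes, imprint maintenance factors, IGF pathway genes and cell type markers, were chosen with earlier results of these data known. Genes named besides the members come from those lists, the targeted genes and the 3 genes most like each member, and some of them were singled out after their values were seen. Replicate numbers were not taken to pair the samples. In cycling FOXD3-iKO, OCT4-tetOff and synchronized cells, correlations of deviations between same-numbered libraries ran from -0.73 to 0.62, from -0.30 to 0.74 and from -0.38 to 0.72. They exceeded 0.1 in 8 of 28, 3 of 6 and 46 of 66 pairs of groups, in that order. These correlations do not settle whether the numbers pair the samples, and a replicate block was fitted as an alternative.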

Additional observations from a re-analysis of the deposited data

How the results depend on the processing

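For called members, 264 of 289 values under other settings kept their direction and their side of the threshold and 25 lost the call; among fits without 1 library, 358 of 432 kept it and 74 lost it, and no direction reversed. The counts of members that moved were as follows. At 32 h of 4HT the 1 became 2 with no low-count filter and 0 when only the compared groups were fitted. For the 4HT effect over release, 4 became 2 with a length trend removed. For the 4HT effect differing over release, 0 became 2 with no low-count filter. For the change over release, 4 became 2 with total counts, 2 with totals outside Gm26917 and Gm42418, and 0 with only the groups compared. For the OCT4 response at 24 h less 16 h, 0 became 2 with total counts, 2 with no filter, 2 with DESeq2 and 4 with a length trend removed. The cause was not tested.

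Leaving out 1 library gave 1 to 3 members at 32 h, 0 to 0 at 8 h, 14 h and 24 h, 0 to 1 for 32 h less 24 h, 3 to 6 at 16 h and 7 to 8 at 24 h of doxycycline, 0 to 2 for 24 h less 16 h, 6 to 8 for the FOXD3 less the OCT4 response, 6 to 7 between the lines, 2 to 5 for the 4HT effect over release, 0 to 6 for the change over release and 0 to 0 for its difference. Peg10 kept its call at 32 h in 16 of 16 such fits, and Peg10 and Mest in synchronized cells in 24 of 24, while Impact lost its release call in 19 of 24.

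The numbers were not taken to pair the samples, though in synchronized cells 46 of 66 pairs of groups had a correlation over 0.1. With the replicate block the members called were 9 for the FOXD3 less the OCT4 response, 8 between the lines, 5 for the 4HT effect over release and 6 for the change over release; the counts were the same elsewhere (1 at 32 h, 6 and 8 with doxycycline, and 0 in the other tests). With the block 8019, 9890 and 6298 genes were called in the first, second and last of these, against 3039, 5990 and 3441.

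Counts over all genes moved by more than 1.5 times in some settings. With no filter 15 genes passed at 14 h against 3, 285 at 24 h against 90, and 1738 for the differing 4HT effect against 0. With only the groups compared, 76 passed at 8 h against 2, 254 at 24 h, 194 at 32 h against 1771 and 754 for release. Scaling by total counts moved the 32 h split from 913 higher and 858 lower to 1562 and 239, and that of 16 h of doxycycline from 1407 and 1579 to 2392 and 1019. Depth limits H19 most, with as few as 3 counts in a library.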
